A study of Homo sapiens with 6 samples.

Results

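Interferon-stimulated genes encode the antiviral proteins that cells make when they sense interferon. In this series, 39 such genes were followed in Caco-2 cells over 6 times of coculture with THP-1 cells. Each gene was represented by the probe set (the group of probes that reports 1 transcript on the array) annotated to that symbol alone, with the highest mean log2 signal. A probe set of this kind was found for 38 of the 39 genes, out of 19775 genes on the array, and STAT2 is not analysed here. DDX58 is given under its current symbol, RIGI. The members are a list of known interferon-stimulated genes, picked by name with earlier results of these arrays known.

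Caco-2 cells come from a human colorectal adenocarcinoma and form a polarised layer resembling small-intestinal enterocytes, and THP-1 cells come from a human monocytic leukaemia. The Caco-2 cells had grown for 14 days on a porous support, which was then set over THP-1 cells that had received phorbol myristate acetate (PMA), an agent that turns them into macrophage-like cells, for 4 days in plates of 12 wells. The RNA came from the Caco-2 side after 0, 1, 3, 6, 24 or 48 h. Each time has a single array, so every value below has n = 1 and no test between times is possible. All 6 groups share the Caco-2 line, and no array of Caco-2 cells kept alone for the same times is analysed here, so time in culture and contact with THP-1 cells cannot be told apart. Both lines are tumour-derived, and the support keeps them apart while soluble factors can pass.

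Type I and type III interferons signal through JAK1 and TYK2 to a complex that includes STAT2 and IRF9 and binds a promoter element called the ISRE. Interferon gamma signals through JAK1 and JAK2, and many of its target promoters carry a different element called GAS. Many of the induced proteins bind viral RNA, block translation or trap virus particles, and some, such as IRF1, are also targets of NF-kB. Intestinal epithelial cells are known for a marked response to type III interferon.

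The promoters of 5 members on which the results below turn are printed first, to show where their letters match motifs of interferon and NF-kB signalling. Each is the stretch of 150 bases before the start site, from RefSeq, build GRCh38.p14, on the strand of the gene. Capitals mark matches to an ISRE core (GAAA, any 2 bases, then GAAA again, on either strand), to GAS (TTCNNNGAA) or to the NF-kB consensus motif. IRF1 and ISG20 were higher in coculture, and IFIT1, BST2 and HERC5 were lower.
IRF1 promoter, chr5:132490774-132490923, minus strand: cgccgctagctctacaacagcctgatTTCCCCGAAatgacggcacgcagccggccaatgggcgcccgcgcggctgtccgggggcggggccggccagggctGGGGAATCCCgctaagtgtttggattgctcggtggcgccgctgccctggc
ISG20 promoter, chr15:88638866-88639015, plus strand: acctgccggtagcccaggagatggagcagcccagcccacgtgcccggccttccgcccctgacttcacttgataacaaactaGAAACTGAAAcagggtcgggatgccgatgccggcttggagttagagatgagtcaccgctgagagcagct
IFIT1 promoter, chr10:89392473-89392622, plus strand: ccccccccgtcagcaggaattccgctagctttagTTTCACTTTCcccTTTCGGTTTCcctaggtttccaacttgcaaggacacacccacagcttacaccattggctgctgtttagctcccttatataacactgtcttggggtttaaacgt
BST2 promoter, chr19:17405631-17405780, minus strand: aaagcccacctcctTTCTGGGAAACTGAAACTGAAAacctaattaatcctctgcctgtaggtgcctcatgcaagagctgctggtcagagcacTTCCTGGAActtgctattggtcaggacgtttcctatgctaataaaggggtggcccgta
HERC5 promoter, chr4:88456969-88457118, plus strand: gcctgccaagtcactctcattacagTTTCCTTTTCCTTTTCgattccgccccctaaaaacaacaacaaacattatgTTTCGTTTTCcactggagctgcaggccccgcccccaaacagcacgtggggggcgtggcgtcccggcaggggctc
In the IRF1 window the capitals are a GAS match with its first base at -124 from the start site and an NF-kB match at -50. ISG20 has an ISRE core at -69. IFIT1 has ISRE cores at -116 and -103, read on the opposite strand, and BST2 has ISRE cores at -130 and -124 that overlap each other. The BST2 core at -130 also overlaps a GAS match at -136, and another GAS match lies at -58. HERC5 has ISRE cores at -125 and -119, which overlap, and at -74, all on the opposite strand.

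A window of 300 bases around the start site (250 before and 50 after it) was in the RefSeq table for 31 of the 39 genes. An ISRE core lay in the windows of 23 of these 31 genes (74.2%), against 4.38% of the 27305 genes with a window. GAS matches were found for 8 member genes (25.8%, against 9.38%) and NF-kB matches for 9 (29.0%, against 13.3%). Members with an ISRE core were found among those that were higher (ISG20, GBP1 and IFI6), among those that were lower (IFIT1, IFIT3, BST2 and HERC5) and among those never above the floor (IFI44, IFI44L, IFITM3 and MX1). A match is a description of the letters and not a shown binding site.

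Signals are MAS5 intensities on a linear scale. The floor was a signal of 16.2, the median of all values, and lower signals were set to it before ratios were taken, so that a fold against a signal at the floor is a lower bound, written "at least". A gene was called measured if at least 1 array was above the floor, which held for 34 members and for 14623 genes in all. Of the 34, 22 were above the floor on all 6 arrays and 12 on some. The 4 members never above it were IFI44, IFI44L, MX1, a GTPase that blocks influenza virus, and IFITM3, a membrane protein that blocks virus entry. Signals of different probe sets are not compared with each other here.

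The 6 arrays had medians of 15.3 to 16.7, and 12006 to 12280 genes exceeded the floor. For ACTB, the signal of the 3' control probe set over that of the 5' one, which is known to depend on how intact and how well labelled the RNA is, came to 51.2 at 0 h and 18.0 to 37.0 in coculture. For GAPDH the same ratio was 4.69 at 0 h and 3.54 to 4.72 in coculture, so the 0 h array stood apart for ACTB and not for GAPDH. As a guide to measurement error, log2 ratios of pairs of probe sets for the same gene were compared. The robust SD of their difference was scaled down to the error of a single probe set's ratio. For signals of 32 to 64, this robust SD was 0.45 at 1 h and 0.54 at 48 h. This SD leaves out the variation between cultures. Of the labelled cell type, 13 of 14 Caco-2 and enterocyte markers were above the floor on all arrays. Of 16 markers of THP-1 cells and macrophages with a probe set, 10 were above the floor on at least 1 array and 5 on all arrays. The other 6 (PTPRC, LST1, SPI1, MRC1, C1QA and C1QB) were never above it. The summed signal of the 16 was 889 at 0 h and 543 to 774 in coculture, but AIF1 alone went from 359.96 at 0 h to 43.0 at 48 h. Without AIF1, left out after its values were seen, the sum was 529 at 0 h and ran from 433 (3 h) to 647 (48 h) in coculture, while LYZ went from 247 to 412 between 0 and 48 h. The part of RNA from THP-1 cells in the results was not tested.

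Of the 34 measured interferon-stimulated genes, 6 were higher at any coculture time (17.6%, against 9.03% of all measured genes). Of these 6, only IFI6 was higher at more than 1 time. A member counted as higher or lower if it differed at least 2-fold from 0 h with the brighter array above the floor, and "rose" and "fell" are used only for such differences. At 1 h, 2 of the 34 measured members were higher and 0 lower, against 1.9% and 1.44% of all measured genes. At 3 h, 0 were higher and 0 lower, against 3.1% and 3.52%. At 6 h, 3 were higher and 3 lower, against 4.23% and 6.45%.

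At 24 h, 1 member was higher and 3 were lower, against 3.95% and 6.14% of all measured genes. At 48 h, 1 was higher and 4 were lower, against 3.82% and 6.14%. In percent, the members' shares ran from 0 to 8.82 higher and from 0 to 11.8 lower, where a single gene is 2.94% of the members. These shares lie near the background at each time and are therefore no result about the group. Over all coculture times, 6 members (17.6%) were higher at least once, against 9.03% of measured genes. In the other direction, 7 members (20.6%) were lower, against 12.9%, and IFIT2 was both.

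The median log2 ratio over the 34 measured members was -0.02, -0.09, -0.09, -0.05 and 0 at 1, 3, 6, 24 and 48 h. Over all measured genes it was 0, -0.02, -0.04, 0 and -0.01. Many members lie at the floor, where a ratio is 0 by construction. Over the 22 members above the floor on all arrays the median was -0.08, -0.21, -0.40, -0.32 and -0.30, beside -0.04, -0.10, -0.14, -0.07 and -0.10 over the 10446 genes above it on all arrays. The 0 h array was the highest of the 6 for 7 of these 22 members (31.8%), and for 30.6% of the 10446 genes.

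**Figure D1:**
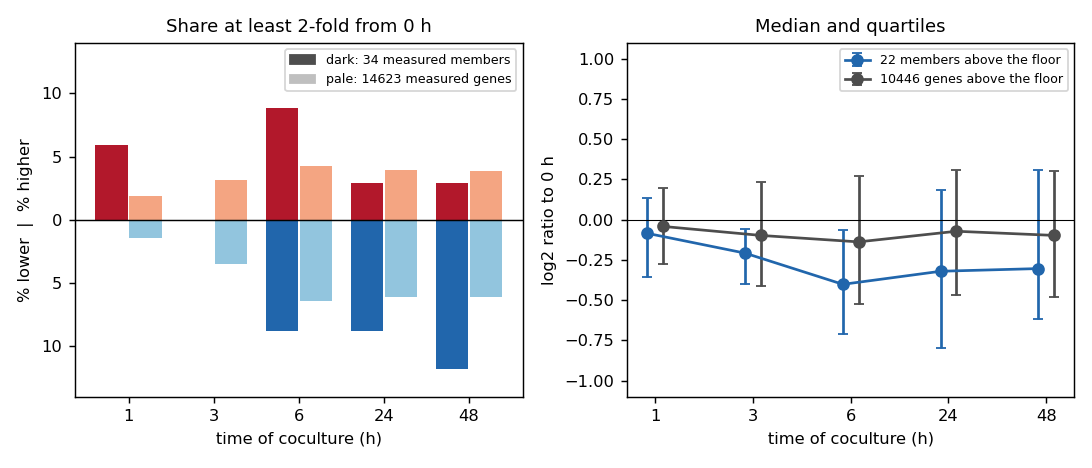
Left, percent of the 34 measured interferon-stimulated genes (dark) and of the 14623 measured genes (pale) at least 2-fold higher (red, up) or lower (blue, down) than at 0 h, at each time of coculture in h. Right, median log2 ratio to 0 h (points) with quartiles (bars) for the 22 members and the 10446 genes above the floor on all arrays; the members' median is lowest at 6 h, at -0.40.

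With the 1 h array as the baseline, whose ACTB ratio was 27.7 and GAPDH ratio 3.81, the counts were 1 higher and 1 lower at 3 h (1.35% and 1.31% of measured genes) and 2 higher and 2 lower at 6 h (2.42% and 3.19%). At 24 h they were 0 higher and 5 lower (2.55% and 4.55%), and at 48 h 1 higher and 4 lower (2.98% and 4.83%). The part of RNA integrity or labelling in these ratios was not tested.

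A signal of at least 100 on the brighter array was reached by 12 members at 1, 3 and 6 h and by 11 at 24 and 48 h. Of these 12, 1 was higher and 0 lower at 1 h (1.96% and 0.72% of the genes that bright), and 0 and 0 at 3 h (3.77% and 3.09%). At 6 h 1 of 12 was in each direction (5.38% and 6.82%). At 24 h, 0 of 11 were higher and 3 lower (4.53% and 6.78%), the 3 being IFIT1, IFIT3 and BST2, and at 48 h 1 of 11 was in each direction (4.84% and 6.94%). Of the 17 differences past 2-fold, 4 stayed past it in each alternative that recomputed the ratio, namely IRF1 at 1 h, ISG20 at 6 h and IFIT1 at 24 and 48 h. Not every alternative could change these. IFIT1 has 1 probe set, so other probe set choices left it as it was, and IRF1 at 1 h has no ratio to the 1 h baseline.

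**Figure D2:**
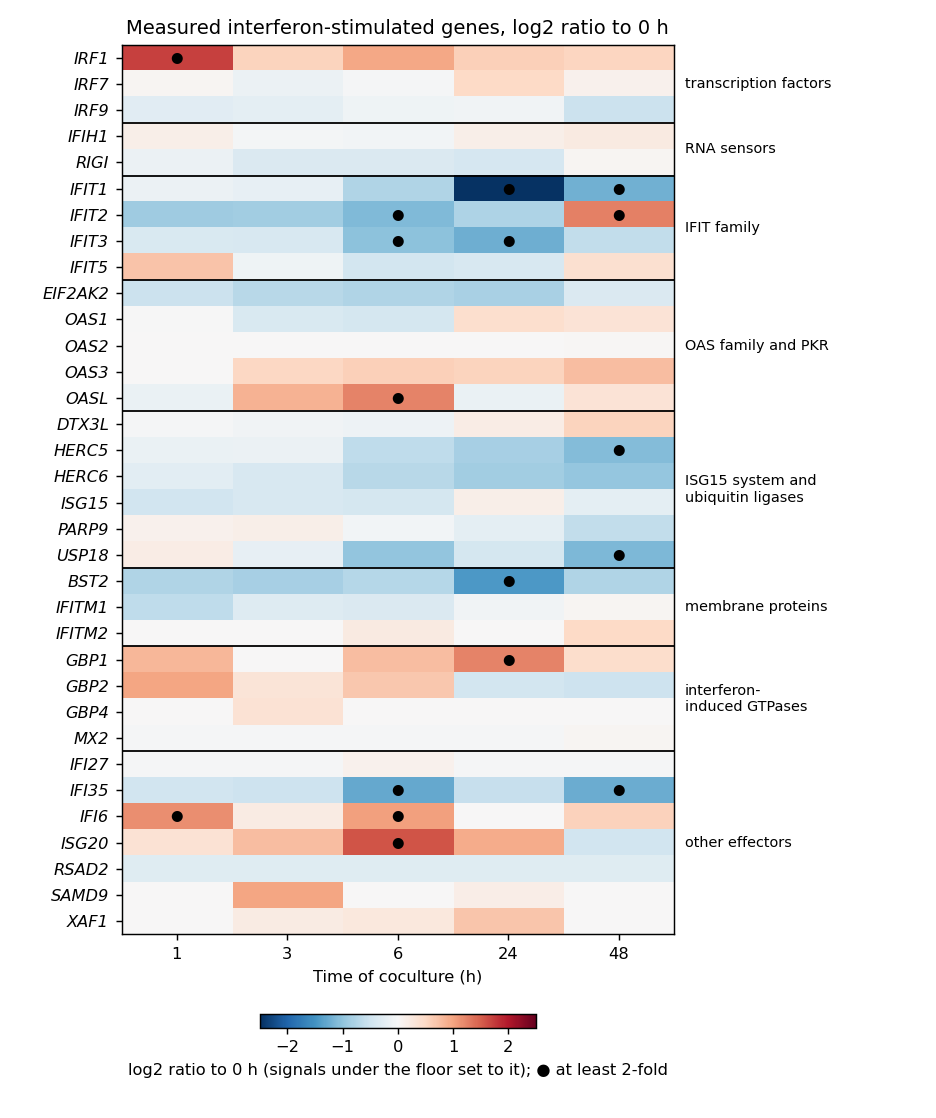
Log2 ratio to 0 h (colour; red higher, blue lower) for the 34 measured interferon-stimulated genes, in rows grouped by role, at each time of coculture in h. Black dots mark differences of at least 2-fold; 17 of the 170 fields carry one, led by the fall of IFIT1 at 24 h and the rise of IRF1 at 1 h.

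Among the transcription factors, IRF1, which activates interferon-stimulated and antigen presentation genes, was the member with the largest rise. Its signals were 58.5, 190.2, 85.6, 114, 88.2 and 84.8 in time order from 0 to 48 h. The 1 h array stands above all others, and each coculture array was above 0 h. IRF1 was 3.25-fold higher at 1 h (log2 ratio 1.70) and 1.95-fold, not past 2-fold, at 6 h. The other IRF1 probe set above the floor on all arrays moved the same way with a smaller ratio, from 53.0 at 0 h to 84.6 at 1 h (log2 ratio 0.67).

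The genes whose log2 signals over the 6 arrays were most like those of IRF1, among 3360 genes above the floor on all arrays with a log2 range of at least 1, were ELF3, an epithelial transcription factor (Pearson r of 0.98), KLF10 (0.96) and TRAPPC10 (0.95). The other 7 of the 10 most alike were FBXL6, SIK1, ACKR3, RFNG, SLC45A3, SPAAR and NR4A1, with r from 0.93 to 0.91. All 10 had their highest signal at 1 h, as IRF1 did, which their choice by likeness to IRF1 largely fixes. ELF3 was 4.92-fold and KLF10 4.75-fold higher at 1 h.

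IRF7, which drives interferon genes after virus sensing, and IRF9, the DNA-binding part of the ISRE-binding complex, stayed within 2-fold. IRF7 had signals of 296, 304, 266, 291, 419.9 and 318 at 0, 1, 3, 6, 24 and 48 h, highest at 24 h with a log2 ratio of 0.51. IRF9 had signals of 220.1, 180.4, 185, 205, 207 and 152 in the same order, lowest at 48 h with a log2 ratio of -0.54. For comparison, the robust SD of a single probe set's log2 ratio, estimated from pairs as above, was 0.41 at 24 h in the signal range of IRF7.

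The RNA sensors of the list did not pass 2-fold at any time. IFIH1, which encodes MDA5 and detects long double-stranded RNA, had signals between 77.6 at 6 h and 94.6 at 48 h. RIGI, which detects the ends of viral RNA, had signals between 101 at 24 h and 142 at 48 h. The log2 ratios of its 3 probe sets above the floor ran from -0.42 to 0.65 at 1 h, so they did not move one way.

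The IFIT family, whose proteins bind viral RNA and block its translation, held 3 of the 7 members that fell at any time. Those 7 are 20.6% of the measured members, against 12.9% of all measured genes. Of the falls in this family, only those of IFIT1 stayed past 2-fold in each alternative. IFIT1 had signals of 244, 219, 212, 144, 44.1 and 106 in time order from 0 to 48 h. The array at 24 h was by far its lowest, and all coculture arrays lay below 0 h. IFIT1 was 5.52-fold lower at 24 h (log2 ratio -2.46) and 2.30-fold lower at 48 h, and it was 2.40-fold higher at 48 h than at 24 h. The difference at 24 h was the largest of any member from 0 h in either direction.

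IFIT3, which binds and stabilises IFIT1, had signals of 272, 209, 206, 134, 116 and 178 at 0, 1, 3, 6, 24 and 48 h. It was thus also lowest at 24 h and below 0 h on each coculture array. The fall was 2.03-fold at 6 h, just past the rule, and 2.34-fold at 24 h (log2 ratio -1.23). Against the 1 h array these differences were 1.56-fold and 1.80-fold, not past 2-fold. Its other probe set above the floor was also below 0 h at these times, with log2 ratios of -0.28 and -0.49, not past 2-fold.

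IFIT2 followed another course. Its signals were 57.0, 30.9, 31.1, 26.6, 33.4 and 136 in the same order of times, so the 4 arrays from 1 to 24 h lay below 0 h and the 48 h array above all others. IFIT2 was 2.14-fold lower at 6 h and 2.38-fold higher at 48 h (log2 ratio 1.25), which is 4.06-fold higher than at 24 h. Against the 1 h array, IFIT2 was only 1.16-fold lower at 6 h, not past 2-fold. Its other probe set was above the floor only at 0 h, with a signal of 17.2, and had 8.58 at 48 h, so it did not show the rise.

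IFIT5, which binds RNA with a 5' phosphate, did not pass 2-fold against 0 h. Its signal was 37.2 at 0 h, peaked at 60.7 after 1 h and had its minimum of 27.2 at 6 h. Its other probe set went from 37.4 at 0 h to 10.6 at 6 h and 8.12 at 24 h, a log2 ratio of -1.20 at both times with the floor, so the probe sets disagreed. In the RefSeq gene order, counting members only, the 4 genes lie on chromosome 10 as IFIT2, IFIT3, IFIT1 and IFIT5. At 48 h their log2 ratios were 1.25, -0.61, -1.20 and 0.39 in that order.

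**Figure D3:**
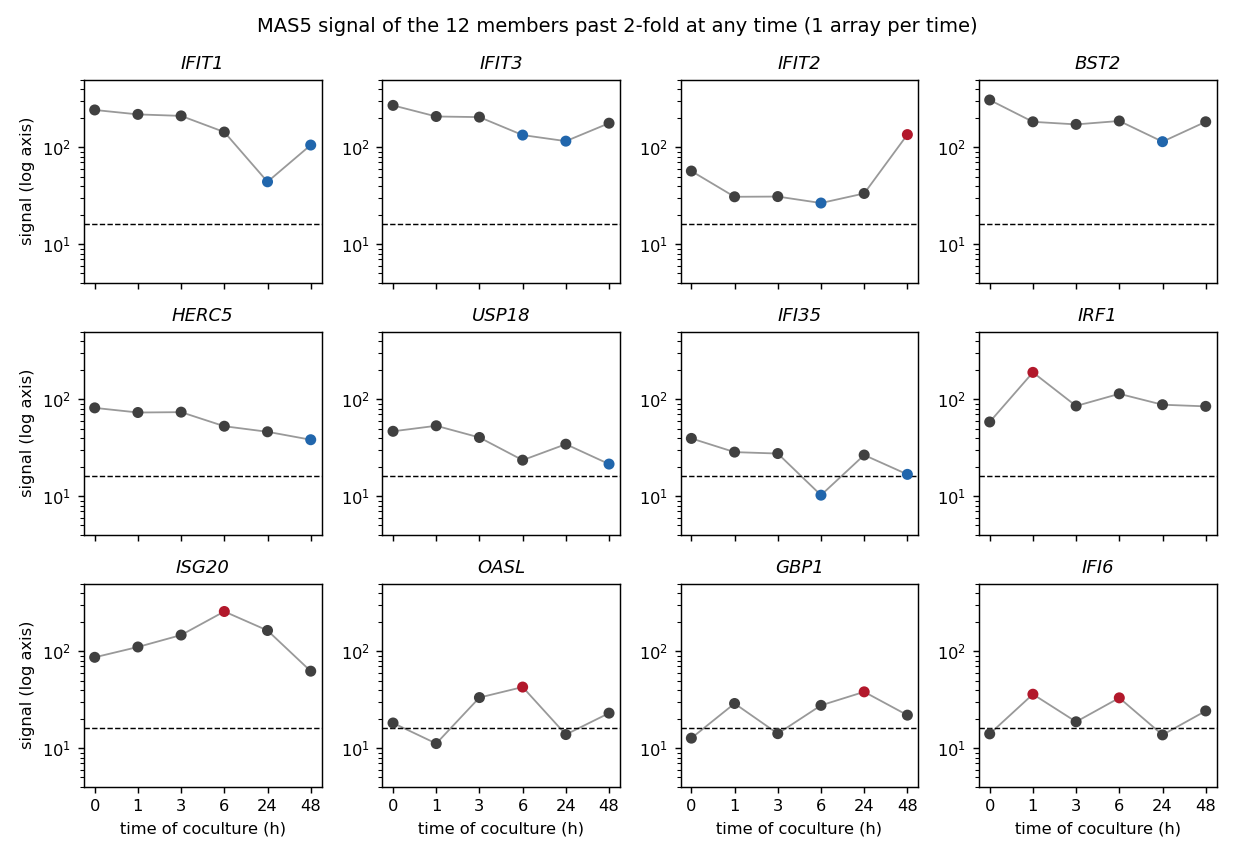
MAS5 signal on a log axis (points, 1 array per time) against time of coculture in h for the 12 members at least 2-fold from 0 h at any time; red points are at least 2-fold higher than 0 h, blue points lower, and the dashed line is the floor of 16.2. IFIT1, IFIT3 and BST2 have their lowest signal at 24 h, IRF1 its highest at 1 h and IFIT2 its highest at 48 h.

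The OAS enzymes make a second messenger that activates RNase L, and EIF2AK2 encodes PKR, a kinase that stops translation on double-stranded RNA. OAS1 had signals of 458, 454, 350.2, 336, 613 and 577 at 0, 1, 3, 6, 24 and 48 h, and its lowest and highest log2 ratios were -0.45 at 6 h and 0.42 at 24 h. OAS3 was above 0 h on each coculture array, from 25.97 at 0 h to 44.0 at 48 h (log2 ratio 0.76), without passing 2-fold. Its other probe set was above the floor only at 0 h (18.3) and 1 h (17.8) and had 6.56 at 48 h, so it did not show this. Among the 22 members above the floor on all arrays, only OAS3 and IRF1 were above 0 h throughout (9.09%, against 18.2% of such genes). OAS2 was above the floor only at 48 h, with a signal of 16.6.

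OASL, an OAS-like protein that enhances RIG-I signalling, had signals of 18.2, 11.2, 33.4, 42.9, 13.9 and 23.1 in the same order. It was 2.35-fold higher at 6 h, with the arrays at 1 and 24 h under the floor. Its other probe set reached 17.8 at 48 h and was under the floor at the other times. EIF2AK2 had signals of 392, 270.1, 242, 233, 224 and 304, below 0 h on each coculture array and lowest at 24 h (log2 ratio -0.81, not past 2-fold). Its other probe set above the floor on all arrays had a log2 ratio of 0.16 at 24 h, so the 2 went opposite ways there.

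ISG15 is a ubiquitin-like protein that is attached to other proteins, a step that HERC5 catalyses in human cells and USP18 reverses. USP18 also blocks the type I interferon receptor. ISG15 itself had signals of 205, 146, 155, 150.5, 228 and 173 at 0, 1, 3, 6, 24 and 48 h, and its log2 ratios lay between -0.49 and 0.15.

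HERC5 had signals of 81.8, 73.3, 73.9, 52.9, 46.3 and 38.3 in the same order. It was lowest on the last array and 2.13-fold lower there (log2 ratio -1.09). Against the 1 h array the same difference was 1.91-fold, not past 2-fold. HERC6, its neighbour on chromosome 4, had 92.3, 76.5, 69.5, 57.3, 50.5 and 47.0. It reached a log2 ratio of -0.97 at 48 h and so fell just short of 2-fold. For these neighbours every coculture array lay below 0 h.

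USP18 had signals of 46.8, 53.4, 40.5, 23.6, 34.5 and 21.5, and was 2.18-fold lower at 48 h. At 6 h its log2 ratio was -0.99. PARP9 and DTX3L, partners in a ubiquitin ligase complex that modifies histones, lie head to head on chromosome 3 with overlapping promoter windows. They were within 2-fold at all times and differed in sign at 48 h, with log2 ratios of -0.62 for PARP9 and 0.55 for DTX3L. The signal of DTX3L was 231 at 0 h and 338 at 48 h, and that of PARP9 was 90.7 and 59.2.

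Of the membrane proteins, BST2, or tetherin, which holds budding virus at the cell surface, had signals of 309, 184, 173, 187, 115 and 184 in time order from 0 to 48 h. All coculture arrays were below 0 h, and 24 h was the lowest. BST2 was 2.70-fold lower at 24 h (log2 ratio -1.43). Against the 1 h array the same difference was 1.60-fold, not past 2-fold, so the fall depends on the 0 h array.

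IFITM1 had signals between 58.7 at 1 h and 94.3 at 48 h, beside 91.0 at 0 h. IFITM2 was above the floor only at 6 h (19.0) and 48 h (22.8). The IFITM genes are near-identical neighbours on chromosome 11 that probe sets may not separate, and a probe set annotated to both IFITM1 and IFITM2 was above the floor only at 0 h, at 20.8.

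Of the 4 measured interferon-induced GTPases, only GBP2 was above the floor on all arrays. GBP1, which coats bacteria in the cytosol, had signals of 12.7, 29.0, 14.2, 27.7, 38.2 and 22.0 at 0, 1, 3, 6, 24 and 48 h. It was at least 2.36-fold higher at 24 h, while its 3 other probe sets were above the floor on at most 1 array. GBP2, with 34.7, 69.1, 43.3, 55.6, 25.3 and 24.3, was highest at 1 h, where its log2 ratio of 0.99 fell just short of 2-fold, and below 0 h at 24 and 48 h. GBP4 was above the floor only at 3 h (20.9), and MX2 only at 0 h (16.5) and 48 h (16.9). GBP genes are close paralogs, so part of a signal could be shared.

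Among the other effectors, ISG20, an RNA exonuclease, had signals of 87.0, 111, 148, 259, 165 and 62.5 at 0, 1, 3, 6, 24 and 48 h. Each array from 1 to 24 h was above 0 h, 6 h was the highest and 48 h the lowest. ISG20 was 2.97-fold higher at 6 h (log2 ratio 1.57). On its other probe set the 6 h difference was smaller, at a log2 ratio of 0.78. By 48 h both probe sets were below 0 h, with log2 ratios of -0.48 and -2.09.

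IFI6, a mitochondrial protein that opposes cell death, had signals of 14.1, 36.1, 18.8, 33.2, 13.7 and 24.3. The rise was at least 2.23-fold at 1 h, and at 6 h it was at least 2.04-fold. IFI35 had 39.6, 28.6, 27.6, 10.3, 26.6 and 16.8, and was at least 2.44-fold lower at 6 h and 2.35-fold lower at 48 h. For both genes the low arrays lie at or near the floor, where MAS5 signals are noisy.

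The remaining effectors were seldom above the floor. RSAD2, or viperin, was above it only at 0 h (20.1). SAMD9, a restriction factor of poxviruses, reached 32.2 at 3 h and 18.3 at 24 h, and XAF1, a promoter of apoptosis, 18.7, 19.4 and 26.2 at 3, 6 and 24 h. IFI27 was above the floor at 0 h (16.5) and 6 h (17.8). None of these 4 passed 2-fold, and none could, as none had a signal 2-fold above the floor.

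**Figure D4:**
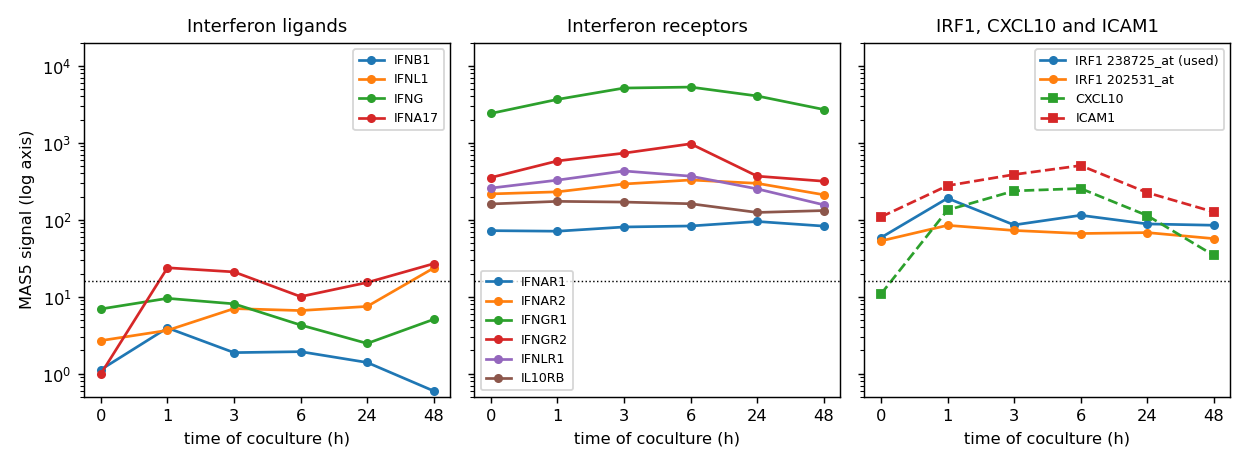
MAS5 signal on a log axis against time of coculture in h, 1 array per point, for 4 interferon ligand genes (left), 6 receptor genes (middle), and both IRF1 probe sets above the floor with CXCL10 and ICAM1 (right); the dotted line is the floor of 16.2. IFNB1 and IFNG lie under the floor at each time, and IFNGR1 and IFNGR2 are highest at 6 h.

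Other genes of the interferon pathway were described with the same size rule. Of all measured genes, 1.9, 3.1, 4.23, 3.95 and 3.82% rose at 1, 3, 6, 24 and 48 h. Those that fell were 1.44, 3.52, 6.45, 6.14 and 6.14% in the same order. Of 18 interferon ligand genes with a probe set, 13 were never above the floor, among them IFNB1 (highest signal 3.93) and IFNG (9.51). No ligand passed 2-fold, but none could under this rule. All were under the floor at 0 h, and no ligand signal was 2-fold above the floor, the highest being 26.9. The rule therefore cannot tell whether a ligand changed. IFNL1, a type III interferon of epithelia, was above the floor only at 48 h, with a signal of 23.6 (at least 1.45-fold higher). IFNA17 reached 26.9 at 48 h (at least 1.66-fold higher), but IFNA genes are near-identical paralogs. IFNA10 and IFNA4 reached 17.2 and 16.4 on their highest arrays.

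All 6 receptor genes were above the floor on each array. At 3 and 6 h, 2 of them rose (33.3%, against 3.1 and 4.23% of all measured genes). None fell at any time, against 1.44 to 6.45%. IFNGR1, the ligand-binding chain for interferon gamma, had signals of 2406, 3666, 5146, 5297, 4059 and 2708 at 0, 1, 3, 6, 24 and 48 h and was 2.20-fold higher at 6 h. IFNGR2, its partner, had 353, 581, 734, 970.0, 368 and 317 and was 2.75-fold higher at 6 h. Both were near their 0 h level again at 48 h. IFNAR1 and IFNAR2, the type I receptor, had as their largest log2 ratios 0.40 (at 24 h) and 0.60 (at 6 h), and IFNLR1, the type III receptor, went from 0.74 after 3 h to -0.72 after 48 h.

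Of the kinases and factors that carry the signal from the receptors, JAK1, TYK2 and IRF9 were measured, and none passed 2-fold. At 6 h the log2 ratio was 0.96 for JAK1 and 0.55 for TYK2. Of 7 brakes of the pathway only USP18 passed 2-fold, and SOCS1, an inhibitor of JAK kinases, lay below 0 h at 1 h (log2 ratio -0.93) and SOCS3 above it at 24 h (0.86).

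In the list of nucleic acid sensing and interferon induction, 3 of 13 measured genes (23.1%) rose at 6 h, against 4.23% of all measured genes. None fell at any time, against 1.44 to 6.45%. The 3 were IKBKE, a kinase that activates IRF3 (2.72-fold), the adaptor TRAF3 (2.34-fold) and CGAS, a DNA sensor (2.11-fold, and 2.87-fold at 48 h). TRIM25, a ubiquitin ligase of RIG-I, was below 0 h on each coculture array. Its signal was 540.4 at 0 h, already 309 at 1 h, and 284 at 48 h (log2 ratio -0.93 to 0 h). Among the IRF family, only IRF1 passed 2-fold, and IRF2, its antagonist, had a log2 ratio of -0.65 at 3 h.

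Of 31 further type I interferon-stimulated genes outside the list, 27 were measured, and 0, 0, 0, 1 and 1 rose while 0, 2, 2, 2 and 2 fell at 1, 3, 6, 24 and 48 h. In percent, 0 to 3.70 rose and 0 to 7.41 fell, beside 1.9 to 4.23 and 1.44 to 6.45 of all measured genes. TNFSF10, the death ligand TRAIL, fell from 281 at 0 h to 27.1 at 24 h. LY6E was 2.53-fold lower at 48 h and NMI 2.10-fold lower at 3 h, while TRIM5, a retrovirus restriction factor, was 2.94-fold higher at 48 h. The median log2 ratio over these 27 genes was -0.12, -0.05, -0.18, -0.18 and -0.31 at the 5 times.

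Of 18 measured interferon gamma-type targets outside the list, 2, 2, 2, 4 and 3 rose and 1, 0, 2, 0 and 0 fell. In percent, 11.1 to 22.2 rose and 0 to 11.1 fell, beside 1.9 to 4.23 and 1.44 to 6.45 of all measured genes. CXCL10, a T cell attractant, had a signal of 10.8 at 0 h and 255 at 6 h, and was at least 15.7-fold higher there. ICAM1, an adhesion molecule, was 4.66-fold higher at 6 h, and both genes are also known targets of NF-kB. CXCL9, another target of interferon gamma, was under the floor on all arrays. CXCL11, from the same list, was above it only at 3 h (27.1) and 6 h (24.8). WARS1 was 2.27-fold higher at 48 h and CD274 at least 2.04-fold higher at 24 h, while TAP2 was 2.03-fold lower at 6 h. CXCL9, CXCL11, WARS1, CD274, TAP2 and IFNG were named after their values were seen. GBP3 was 3.32-fold higher at 48 h. APOL2 had signals of 67.3, 20.0, 49.95, 19.1, 48.1 and 52.2, lower at 1 and 6 h only.

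For comparison, 9 measured NF-kB targets, picked with earlier results of these arrays known, had 8, 9, 9, 9 and 3 members higher and none lower at 1, 3, 6, 24 and 48 h, with median log2 ratios of 3.24, 3.12, 2.87, 2.23 and 0.65. At the same times the interferon-stimulated genes had 2, 0, 3, 1 and 1 of 34 members higher. Of all measured genes, 1.9, 3.1, 4.23, 3.95 and 3.82% were higher. Since all comparisons share the single 0 h array, these values are set side by side only. In bulk RNA such as this, fewer cells that make a transcript and less of it per cell cannot be told apart.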

How the data were processed

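Total RNA of 6 Caco-2 samples, 4 µg each, was hybridised to Affymetrix arrays as biotin-labelled cRNA, per the labels' protocols. The authors deposited linear intensities, which are MAS5 signals per the submitters' processing notes. MAS5 corrects background and scales each array, which hides changes in total RNA. The sources used here do not give its version or detection calls. The 2% trimmed mean was 93.8 on each array, and no scaling was added.

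Of 54675 probe sets, 41097 had 1 gene symbol in the annotation table, 1801 several and 11777 none; symbols were updated through RefSeq gene identifiers (GRCh38.p14), and manufacturer controls were left out. The floor was the 50th percentile of all values. Precision is limited by having 1 array per time, so no test was made. The members and lists were chosen with earlier results of these data known. All members are accounted for. Of the pathway lists, up to 4 genes with the largest ratio and a few fixed genes were named. Some further genes were named after their values were seen. The size rule was tested on simulated data, with changes well past 2-fold planted in bright genes only. That test does not cover differences near 2-fold or dim members. Alternatives were 2 scalings, 2 floors, a pseudocount, other probe set choices, the 1 h baseline and 1.5-fold and 3-fold rules, and, added after seeing the data, a signal of at least 100 on the brighter array. Scripts used Python 3.11.15, numpy 2.4.6 and pandas 2.3.3.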

Additional observations from a re-analysis of the deposited data

How the results depend on the processing

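No paired analysis was possible because each time has 1 array. Of the 17 differences of named members past 2-fold, 4 stayed past it in each of the alternatives that recomputed the ratio: IFIT1 at 24 and 48 h, ISG20 at 6 h and IRF1 at 1 h. Not every alternative could change these. IFIT1 has 1 probe set, the signals of these genes exceed both alternative floors, and IRF1 at 1 h has no ratio to the 1 h baseline. The other differences were lost in at least 1 alternative, most often with the pseudocount, the floor at the 65th percentile or the 1 h array as baseline. The difference of IFI6 at 6 h reversed against the 1 h array (log2 ratio -0.12). Against that array, IFIT2 was lost at 6 h, IFIT3 at 6 and 24 h, and IFI35 at 6 and 48 h. GBP1 at 24 h, HERC5 at 48 h and BST2 at 24 h were lost there too. The cause was not tested, except that a higher floor leaves fewer members measured (25).

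The counts of members higher and lower at 1, 3, 6, 24 and 48 h changed as follows, with the range over these times of the shares of all measured genes in parentheses; other counts stayed within 1.5 times. With the floor at the 30th percentile (38 members measured), 3, 2, 6, 1 and 2 were higher (4.34 to 7.88%) and 3, 4, 4, 5 and 7 lower (5.14 to 9.36%). With that at the 65th, 1, 0, 1, 0 and 1 were higher (1.56 to 4.11%) and 0, 0, 1, 3 and 2 lower (0.734 to 5.80%). With the floor as a pseudocount they were 1, 0, 1, 0 and 1 higher (1.35 to 3.73%) and 0, 1, 1, 3 and 1 lower (0.985 to 4.51%). With the median over probe sets they were 2, 0, 2, 0 and 0 higher (1.14 to 2.84%) and 0, 0, 1, 2 and 5 lower (0.738 to 4.00%). Both scalings gave 4 higher (4.48 and 4.74%) and 2 lower (6.02 and 5.43%) at 6 h, and without _x_at and _s_at probe sets there were 2 of each (4.35 and 6.43%). Against the 1 h array they were 1, 2, 0 and 1 higher (1.35 to 2.98%) and 1, 2, 5 and 4 lower (1.31 to 4.83%) from 3 h on. At 1.5-fold they were 5, 3, 7, 4 and 2 higher (6.53 to 12.0%) and 3, 3, 9, 7 and 8 lower (8.06 to 19.1%), and at 3-fold 1, 0, 0, 0 and 0 higher (0.479 to 1.13%) and 0, 0, 0, 1 and 0 lower (0.130 to 1.35%). With a signal of at least 100 on the brighter array, an alternative chosen after seeing the data, they were 1, 0, 1, 0 and 1 higher (1.96 to 5.38% of genes that bright) and 0, 0, 1, 3 and 1 lower (0.72 to 6.94%). The median log2 ratio moved by over 0.1 only with the floor at the 30th percentile, to -0.14, -0.24, -0.23 and -0.19 at 1, 6, 24 and 48 h, and with the pseudocount, to -0.13 at 1 h.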
